A study of Mus musculus with 30 samples.

Results

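The ABC drug efflux transporters described here are 10 mouse genes, Abcb1a, Abcb1b, Abcc1, Abcc2, Abcc3, Abcc4, Abcc5, Abcc10, Abcg2 and Abcg3. They were taken by symbol from a table of 21841 genes, whatever their values, and followed in 30 mammary tumours by bulk RNA sequencing. Each encodes a membrane protein of the ATP-binding cassette (ABC) superfamily, whose members spend ATP to move substances across a membrane. ABCB1, also called P-glycoprotein and encoded by a pair of genes in mice, pumps hydrophobic drugs out of cells and is well known from blood vessel walls in the brain. The ABCC proteins, or multidrug resistance-associated proteins, export glutathione and glucuronide conjugates and nucleotide analogues, and ABCG2 (breast cancer resistance protein) exports drugs and porphyrins and carries substances into milk.

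All 30 tumours came from the FVB/N-Tg(MMTV-PyVT)634Mul/J line, in which the MMTV promoter drives the polyoma middle T oncogene in mammary epithelium and tumours arise spontaneously, so every group, the controls included, carried the transgene. The labels give the genotype as WT and give neither age nor sex. The 6 groups of 5 were injected intraperitoneally. A control group had vehicle, 3 groups had 1 drug each, 5-fluorouracil (5-FU), gemcitabine or KCL-HO-1i, and the last groups had the inhibitor together with a chemotherapy, written KCL-HO-1i/5-FU where this was 5-FU and KCL-HO-1i/gemcitabine where it was gemcitabine. KCL-HO-1i, at 25 µmol/kg daily, is a tin mesoporphyrin salt that inhibits heme oxygenase-1, while 5-FU (40 mg/kg every 4 days) and gemcitabine (64 mg/kg every 7 days) are cytotoxic nucleoside or base analogues. The labels give 72 hours of treatment, whereas the study's methods describe less time and less gemcitabine.

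Libraries held between 10.1 M and 13.6 M counts. Levels are given as CPM, read counts scaled to each library's effective size, and 3 reads corresponded to between 0.215 and 0.302 CPM. Luminal epithelial markers, the label's breast tissue, summed to between 2309 and 5460 CPM per library, and none of the 9 was at 0 in every library. Several marker lists of other cell types moved with KCL-HO-1i. Averaged over the 3 backgrounds in which KCL-HO-1i was given (vehicle, 5-FU and gemcitabine), an unadjusted p under 0.05 and a higher level were found for 8 of 11 macrophage markers (median log2 fold change 0.79), 8 of 12 endothelial markers (0.70), 8 of 8 fibroblast markers (1.57), 8 of 8 adipocyte markers (2.28) and 8 of 8 skeletal muscle markers (3.33), where 13.7% of all genes tested were higher. In the same contrast 6 of 8 proliferation markers were lower (median -0.46), where 9.22% of all genes tested were. None of 6 tested T cell markers (median -0.079) and none of 9 milk markers (0.10) passed that p, and of 9 luminal markers 1 was higher and 1 lower. A trio of KCL-HO-1i libraries had the highest endothelial marker sums of the 30, at 668 CPM in KCL-HO-1i/gemcitabine replicate 2, 503 CPM in replicate 3 of KCL-HO-1i/5-FU and 400 CPM in replicate 4 of KCL-HO-1i. The first of these was also the highest of the 30 in fibroblast (12536 CPM), adipocyte (7353 CPM) and muscle markers (11309 CPM), the last was second in adipocyte (6398 CPM) and muscle markers (3852 CPM), and the KCL-HO-1i/5-FU library was highest in macrophage markers (826 CPM). Luminal markers summed to 2498, 3391 and 2309 CPM in these libraries, ranks 29, 26 and 30 of 30. Mitochondrial genes held 9.69% of the counts of KCL-HO-1i replicate 4 and 4.54% of those of KCL-HO-1i/gemcitabine replicate 2, against 1.44% to 3.51% in the libraries outside the trio. For the transporters, each comparison with an inhibitor group is therefore also given without the trio, a choice made after seeing the data. The trio takes libraries from the inhibitor groups only, while gemcitabine replicate 5, at 211 CPM and rank 4 of 30 in endothelial markers, was kept. Values for marker lists and related genes are given with all libraries only.

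Promoter windows of 4 members are printed because these are the members whose levels were furthest apart between the KCL-HO-1i and other libraries or the P-glycoprotein pair. For Abcc4 the window at the start of the gene was taken, and a second Abcc4 window in the promoter table, with 47.3% G and C, is not printed. Each runs from 250 bases before to 50 bases after a RefSeq transcription start on GRCm38.p6, in the direction of transcription. Capitals mark matches to CCAAT, to the GC box GGGCGG, to TGACNNNGC (the core of the antioxidant response element) or to GCGTG (the core of the aryl hydrocarbon receptor element), searched on both strands. The windows lie at chr5:8566841-8567140 (Abcb1a, plus strand), chr5:8797897-8798196 (Abcb1b, plus strand), chr14:118706170-118706469 (Abcc4, minus strand) and chr5:104982668-104982967 (Abcg3, minus strand).
Abcb1a: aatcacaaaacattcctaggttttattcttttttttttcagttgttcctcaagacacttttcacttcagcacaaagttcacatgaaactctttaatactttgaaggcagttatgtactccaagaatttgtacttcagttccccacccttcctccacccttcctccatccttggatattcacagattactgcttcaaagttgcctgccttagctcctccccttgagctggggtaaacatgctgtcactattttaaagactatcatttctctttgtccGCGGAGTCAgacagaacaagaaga
Abcb1b: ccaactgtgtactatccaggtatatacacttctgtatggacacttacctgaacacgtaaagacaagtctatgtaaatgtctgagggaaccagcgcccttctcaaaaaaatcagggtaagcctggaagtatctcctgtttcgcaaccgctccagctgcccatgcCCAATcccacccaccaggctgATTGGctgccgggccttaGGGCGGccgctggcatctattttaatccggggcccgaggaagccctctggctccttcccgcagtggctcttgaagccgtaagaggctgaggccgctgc
Abcc4: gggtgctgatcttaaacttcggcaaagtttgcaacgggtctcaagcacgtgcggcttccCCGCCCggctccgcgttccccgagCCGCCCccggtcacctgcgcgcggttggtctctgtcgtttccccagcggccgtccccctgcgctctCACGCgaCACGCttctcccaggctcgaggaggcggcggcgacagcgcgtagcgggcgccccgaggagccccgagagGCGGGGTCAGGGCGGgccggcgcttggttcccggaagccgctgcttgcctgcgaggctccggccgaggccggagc
Abcg3: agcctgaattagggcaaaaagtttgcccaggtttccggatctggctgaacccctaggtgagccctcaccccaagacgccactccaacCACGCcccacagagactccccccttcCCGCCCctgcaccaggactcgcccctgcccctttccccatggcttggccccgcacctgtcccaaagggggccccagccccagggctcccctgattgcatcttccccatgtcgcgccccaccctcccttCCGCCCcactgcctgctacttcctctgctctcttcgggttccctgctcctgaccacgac

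The Abcb1a window had 40.3% G and C and a single match, to TGACNNNGC, and its RefSeq start lies 93 kb before the start of the GENCODE gene. The Abcb1b window of the neighbouring paralogue had 55% G and C, with 2 CCAAT matches and 1 GC box upstream of the start. The printed Abcc4 window was the richest in G and C (72.7%), with 3 GC boxes, 1 TGACNNNGC match and 2 GCGTG matches, and Abcg3 (65.3%) had 2 GC boxes and 1 GCGTG match. Across 32851 mouse promoter windows the median G and C content was 52.7%, and CCAAT was found in 37.4%, GGGCGG in 35.7%, TGACNNNGC in 12.4% and GCGTG in 32.4%. Of the 12 windows of the 8 members in the promoter table, 3, 7, 6 and 3 held these motifs, and none of the 31 matches overlapped another. Windows of 1 gene are not independent, and a match describes letters, not binding.

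Levels differed widely between the transporters. Per kilobase of exon, the median over 30 libraries was highest for Abcg2 at 4.05 CPM per kb, followed by Abcc10 (2.46), Abcc3 (1.71), Abcc1 (1.32) and Abcc5 (1.26). The remaining members were far lower, with medians of 0.301 for Abcb1a, 0.224 for Abcc4, 0.209 for Abcb1b, 0.207 for Abcg3 and 0.0117 for Abcc2. The step from Abcc5 to Abcb1a was present in 30 of 30 libraries, as was that from Abcg3 to Abcc2. Neighbours within each of the upper and lower sets changed places between libraries. The sets were not wholly apart either, since Abcc4 reached 2.95 CPM per kb in its highest library, above the highest Abcc5 value of 2.34. Abcg2 was above Abcc10 in 25 of 30 libraries, whereas Abcc1 was above Abcc5 in 15 and Abcb1a above Abcc4 in 14. Spread between libraries was also uneven, since the SD of log2 CPM over the 30 libraries was 1.48 for Abcc4, 0.93 for Abcc3, 0.92 for Abcb1a and 0.27 for Abcc10, against a median of 0.34 over all genes tested.

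**Figure D1:**
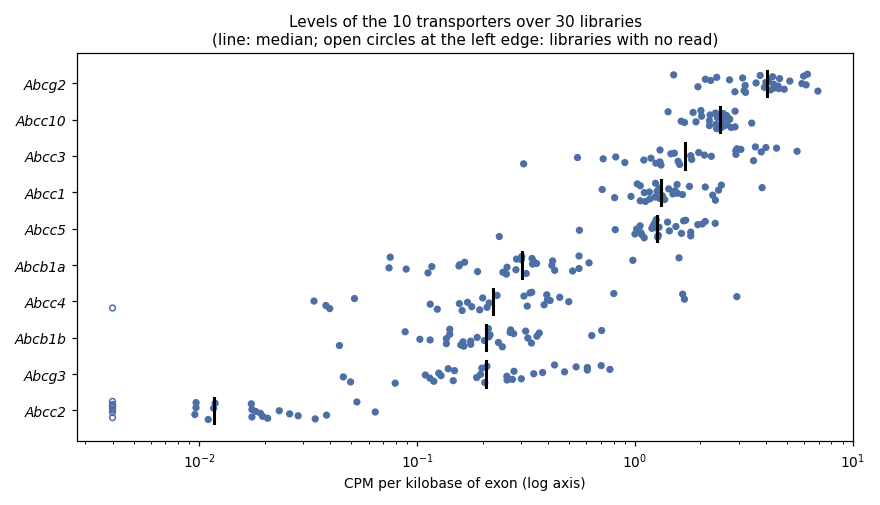
Levels of the 10 transporters in CPM per kilobase of exon on a log axis, with 1 point per library (30 libraries), a line at the median, and open circles at the left edge for libraries with no read. The 5 transporters from Abcg2 to Abcc5 form an upper set with medians of 1.26 to 4.05, and Abcc2 lies at the bottom with a median of 0.0117.

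Abcb1a and Abcb1b (chromosome 5, plus strand, at 8660077-8748575 and 8798147-8866315 on GRCm38) encode the mouse P-glycoproteins. Reads of the pair are partly exchangeable, since 21.7% of the 31-base words of Abcb1a transcripts also occur in Abcb1b and 14.8% of those of Abcb1b in Abcb1a, so the split between them is uncertain. Abcb1a was at 1.41, 1.74, 0.616, 1.36 and 1.04 CPM in the 5 vehicle tumours, and at 1.85, 8.75, 0.413, 1.66 and 3.04 CPM with KCL-HO-1i/gemcitabine. The groups overlapped, with the highest and the lowest of these 10 values in the same treated group. Under KCL-HO-1i/5-FU Abcb1a stood at 1.88, 2.3, 5.37, 1.65 and 1.57 CPM, and under KCL-HO-1i alone at 0.861, 1.86, 1.94, 3.38 and 0.907. Means with chemotherapy alone were 2.06 ± 1.05 CPM for 5-FU and 1.12 ± 0.751 for gemcitabine (SD, n = 5). Abcb1b had means of 1.26 ± 0.583 CPM with vehicle, 2.57 ± 1.49 with KCL-HO-1i, 1.82 ± 0.89 with KCL-HO-1i/5-FU and 2.63 ± 1.76 with KCL-HO-1i/gemcitabine (SD, n = 5). Its highest libraries, KCL-HO-1i/gemcitabine replicate 2 at 5.63 CPM and KCL-HO-1i replicate 4 at 5.07, were among the trio with the highest endothelial marker sums.

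The ABCC proteins gave both the most and the least variable members. Abcc1 encodes an exporter of glutathione conjugates and leukotriene C4, and ranged from 10.7 to 58 CPM, with the top value in KCL-HO-1i/5-FU replicate 3. Its means were 21.3 ± 8.07 CPM with vehicle, 17 ± 3.5 with 5-FU, 24.5 ± 6.38 with gemcitabine, 21.4 ± 9.59 with KCL-HO-1i, 31.6 ± 15.6 with KCL-HO-1i/5-FU and 22.3 ± 9.19 with KCL-HO-1i/gemcitabine (SD, n = 5).

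Abcc2, the exporter of bilirubin glucuronides into bile, was at the limit of detection. It had between 0 and 6 reads per library, with 9 reads in the 5 vehicle libraries together, 13 with 5-FU, 12 with gemcitabine, 4 with KCL-HO-1i, 0 with KCL-HO-1i/5-FU and 10 with KCL-HO-1i/gemcitabine. It did not pass the filter on low counts, and no fold change is given. In an edgeR fit without that filter its adjusted p in the KCL-HO-1i average was 0.0751, from 14 reads in 15 libraries with the inhibitor and 34 in the 15 without.

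Abcc3 (chromosome 11, minus strand, 94343295-94392997) encodes an exporter of glucuronides and bile acids. In vehicle tumours it stood at 7.52, 9.16, 1.76, 7.12 and 5.13 CPM, with 5-FU at 7.44, 9.01, 20, 6.27 and 10.4, and with gemcitabine at 4.08, 6.76, 3.11, 4.66 and 12.8. With KCL-HO-1i it stood at 10.3, 11.9, 16.6, 8.35 and 8.66 CPM, with KCL-HO-1i/5-FU at 11.2, 21.7, 31.7, 16.6 and 7.44, and with KCL-HO-1i/gemcitabine at 17.5, 16.8, 25.5, 22.8 and 20.4. The KCL-HO-1i/gemcitabine libraries all lay above those of vehicle, gemcitabine and KCL-HO-1i, whereas the KCL-HO-1i and KCL-HO-1i/5-FU ranges overlapped those of their controls. Of the 15 libraries with the inhibitor, 14 were above the mean of their own background, as were at least 14 for 2.24% of all genes tested. Differences between groups held 57.6% of the variance of Abcc3 in log2 CPM, against a median of 20.5% over all genes tested. None of its 31-base words occur in another gene.

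Abcc4 (chromosome 14, minus strand, 118482692-118706219) encodes an exporter of cyclic nucleotides, prostaglandins and nucleotide analogues. It stood at 1.03, 1.24, 0.792, 0.254 and 0 CPM with vehicle, and at 2.52, 10.6, 5.12, 2.11 and 2.15 with KCL-HO-1i/gemcitabine. With KCL-HO-1i/5-FU the values were 1.28, 2.89, 18.8, 1.98 and 1.49 CPM, and with KCL-HO-1i alone 0.215, 2.61, 2.54, 10.8 and 0.33. Both combinations lay wholly above vehicle, while KCL-HO-1i alone had 2 libraries within the vehicle range and 3 above it. The highest library of each inhibitor group, at 10.8, 18.8 and 10.6 CPM, was 1 of the 3 with the highest endothelial marker sums, which also included the 2 highest sums of adipocyte and muscle markers. With chemotherapy alone Abcc4 averaged 1.44 ± 0.854 CPM for 5-FU and 1.47 ± 0.979 for gemcitabine (SD, n = 5).

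Abcc5, an exporter of cyclic nucleotides and nucleotide analogues, averaged 12.2 ± 6.06 CPM with vehicle, 14.1 ± 4 with 5-FU, 10.4 ± 3.5 with gemcitabine, 13.6 ± 1.9 with KCL-HO-1i, 18.8 ± 5.38 with KCL-HO-1i/5-FU and 17.4 ± 3.49 with KCL-HO-1i/gemcitabine (SD, n = 5). Its lowest value of all, 2.55 CPM, was in vehicle replicate 3, the library that was also lowest for Abcc3. Abcc10, an exporter known for taxanes, was the steadiest member and stayed between 9.75 and 23.6 CPM. Its gemcitabine libraries, at 11.6, 13.1, 11.2, 15.1 and 17.3 CPM, overlapped the vehicle libraries, at 16.3, 17, 19, 19.8 and 17.5, through 1 gemcitabine library.

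Abcg2 (chromosome 6) was the most abundant transporter per length and averaged 33.3 ± 13.6 CPM with vehicle, 32.1 ± 9.48 with 5-FU, 39.3 ± 9.67 with gemcitabine, 31.1 ± 8.58 with KCL-HO-1i, 24.4 ± 8.05 with KCL-HO-1i/5-FU and 35.4 ± 15.5 with KCL-HO-1i/gemcitabine (SD, n = 5). The group ranges all overlapped one another between 26.2 and 37.7 CPM. Abcg3 (chromosome 5, minus strand, 104935057-104982718), a rodent relative of Abcg2, was rare, with between 2 and 33 reads per library. It stood at 0.282, 0.727, 0.176, 0.424 and 0.521 CPM with vehicle and at 2.15, 1.91, 0.744, 2.49 and 1.52 with KCL-HO-1i/gemcitabine. The pair of groups did not overlap, although their nearest values, 0.727 and 0.744 CPM, were almost equal. Abcg3 reached the level required by the filter (0.827 CPM before scaling) in 10 of 15 libraries with the inhibitor and in 4 of 15 without, so it entered the test through the inhibitor groups.

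**Figure D2:**
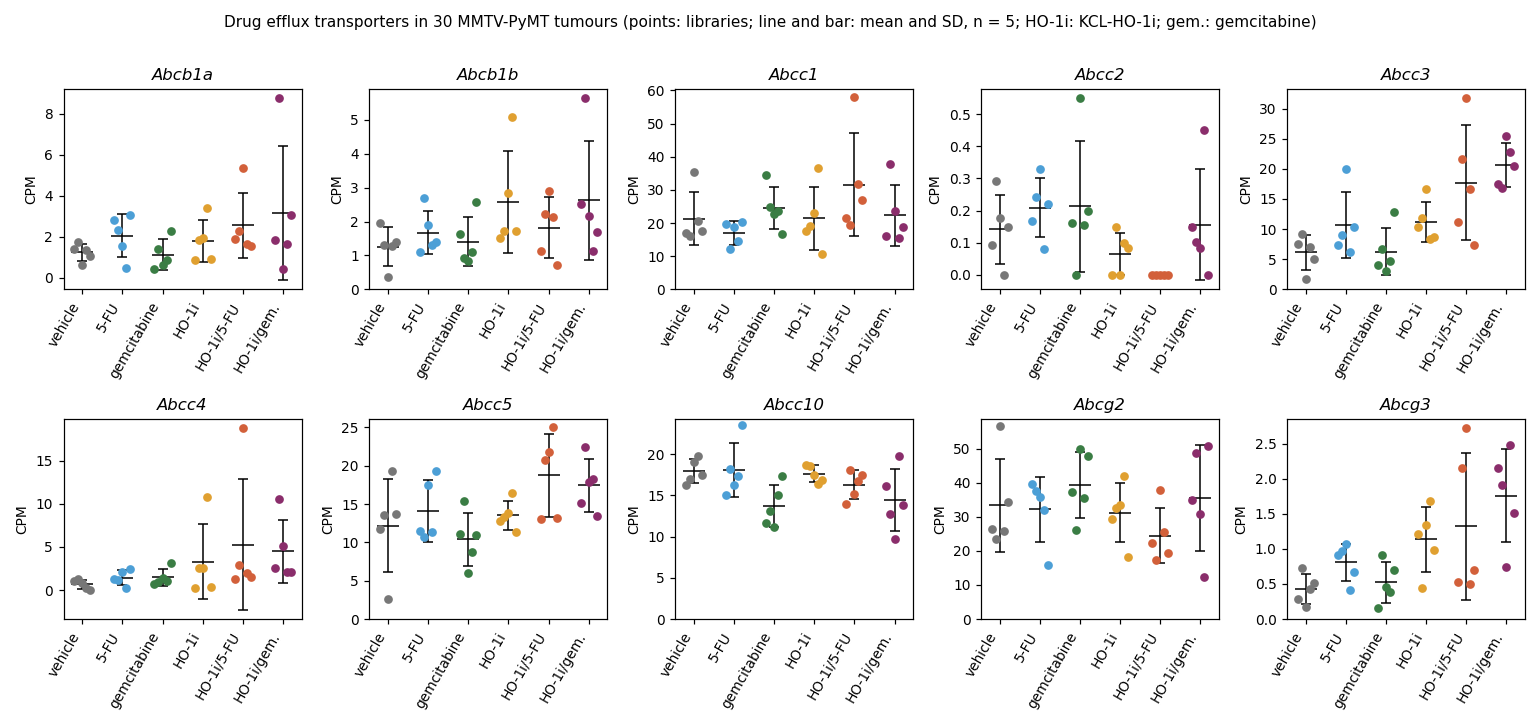
CPM of each transporter in every library, by treatment group (1 point per tumour, 5 per group, line and bar for the mean and SD, separate vertical axes). Abcc3 with KCL-HO-1i/gemcitabine sits between 16.8 and 25.5 CPM, above all vehicle and gemcitabine libraries, and the isolated high points of Abcc4 (18.8, 10.8 and 10.6 CPM) each belong to a different inhibitor group.

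The first comparison asked how the transporters differed with KCL-HO-1i when averaged over its 3 backgrounds. None of the 9 tested members passed an adjusted p of 0.05 in edgeR's quasi-likelihood test, against 8 (0.0586%) of all genes tested. Beside Abcg3, DESeq2 called Abcc3 and Abcc4, where it called 1139 of all genes tested. Limma-voom called Abcc3, where it called 267 of all genes tested. Abcc3 came nearest, at a log2 fold change of 1.11 (SE 0.24, edgeR adjusted p = 0.0525), with Abcc4 at 1.92 (SE 0.54, edgeR adjusted p = 0.0558). Abcg3 was at 1.27 (SE 0.30, edgeR adjusted p = 0.0525). Since it was tested only because of its level in the inhibitor groups, it is left out of the counts over members here, and in the fit without the filter its edgeR adjusted p was 0.0711. At an unadjusted p under 0.05, Abcb1a, Abcb1b, Abcc3, Abcc4 and Abcc5 were higher, 5 of the 8 other members tested, where 13.7% of all genes tested were higher, and no member was lower, where 9.22% were. The other values of this set were 0.77 for Abcb1a (SE 0.35), 0.68 for Abcb1b (SE 0.28) and 0.44 for Abcc5 (SE 0.18). With the reads of the P-glycoprotein pair summed, the value was 0.74 (edgeR adjusted p = 0.112). Abcc1 at 0.25 (SE 0.18), Abcc10 at -0.03 (SE 0.088) and Abcg2 at -0.21 (SE 0.18) did not reach an unadjusted p of 0.05. The median log2 fold change was 0.56 over these 8 members and -0.00069 over all genes tested. In bulk tumour RNA, more cells of a type and more RNA per cell cannot be told apart.

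The trio of libraries carried part of this count. It holds the highest Abcc4, Abcb1a and Abcb1b library of each inhibitor group. Lower values of these members without it were therefore fixed in advance and test nothing. Without it Abcc3 was at 1.05 (SE 0.24, edgeR unadjusted p = 0.000235, adjusted p = 0.192) and Abcg3 at 1.05 (SE 0.31, edgeR unadjusted p = 0.00216). Abcc4 fell from 1.92 to 0.83 (SE 0.43, edgeR unadjusted p = 0.0643), Abcb1a to 0.21, Abcb1b to 0.30 and Abcc5 to 0.35, none of them with an unadjusted p under 0.05. Abcg2 was then lower at -0.38 (SE 0.18, edgeR unadjusted p = 0.0494), and Abcc1 stood at -0.048. Among all genes the share with a higher level and an unadjusted p under 0.05 was 5.84% without the trio. With 1 library left out at a time, Abcc3, Abcc4 and Abcg3 had an unadjusted p under 0.05 in each of the 30 fits, while Abcb1a missed it in 10, Abcb1b in 2 and Abcc5 in 1. At the limits the study used (a log2 fold change beyond 0.6 with an unadjusted p under 0.05) the members called were the same except Abcc5, 4 beside Abcg3, against 9.24% of all genes tested.

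**Figure D3:**
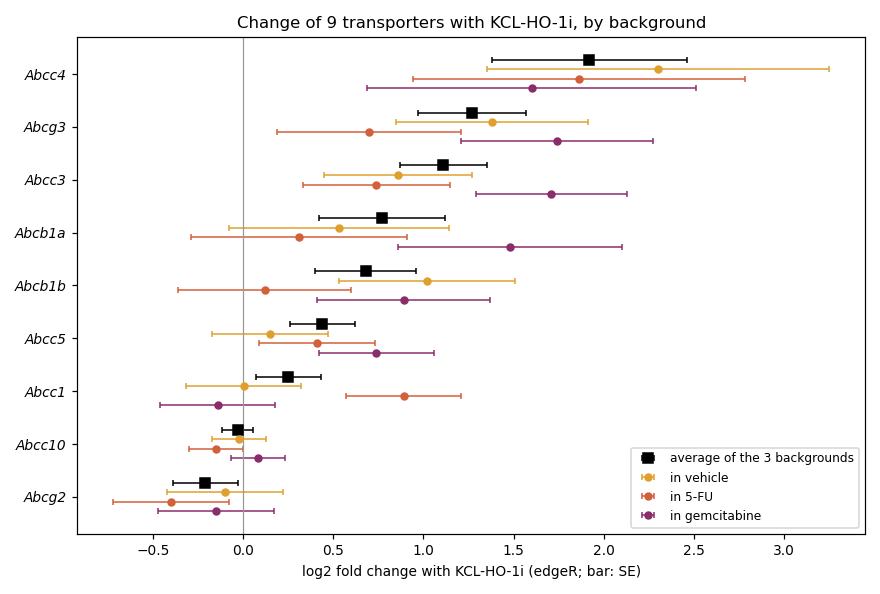
Log2 fold change with KCL-HO-1i for the 9 transporters tested (edgeR; bars, SE), as the average of 3 backgrounds (black squares) and within each background (coloured circles). Abcc4, Abcg3 and Abcc3 lie furthest right, at averages of 1.92, 1.27 and 1.11, and Abcc10 and Abcg2 lie on or left of 0.

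The study compared each treatment with vehicle, and these 5 comparisons share their 5 control libraries. Vehicle replicate 3 was the lowest of the 30 libraries in macrophage (99.7 CPM), fibroblast (106 CPM) and T cell marker sums (2.55 CPM). With 5-FU alone no member reached an unadjusted p under 0.05 in either direction, where 1.65% of all genes tested were higher and 2.24% lower. Abcc4 stood at a log2 fold change of 1.12 (SE 0.94), Abcg3 at 0.89 (SE 0.53) and Abcc3 at 0.79 (SE 0.41). With gemcitabine alone Abcc10 was lower, by a log2 fold change of -0.39 (SE 0.15, edgeR unadjusted p = 0.0163, adjusted p = 0.941), the single member called where 1.78% of all genes tested were lower. No member was higher, where 2.05% of all genes tested were. Abcc3 stood at 0.03 (SE 0.41), Abcg3 at 0.28 (SE 0.54) and Abcc4 at 1.14 (SE 0.94).

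Abcg3 is again left out of the counts over members, for the reason given for the average. With KCL-HO-1i alone, Abcb1b (1.02, SE 0.49), Abcc3 (0.86, SE 0.41) and Abcc4 (2.30, SE 0.95) were higher at an unadjusted p under 0.05. These were 3 of the 8 other members tested, where 7.36% of all genes tested were higher. Abcg3 stood at 1.38 (SE 0.53). Adjusted p-values of these genes in edgeR were between 0.4 and 0.518. None of them lay wholly above vehicle, as 0.747% of all genes tested did. Without the trio Abcc3 at 0.94 had an unadjusted p under 0.05, where 4.2% of all genes tested were higher, while Abcc4 at 1.09 and Abcb1b at 0.61 missed it. Abcg3 was then at 1.19. In the labels a PY code (the letters PY and a number) opens each sample description. With this code in the model Abcb1b and Abcc4 turned to -1.02 (SE 1.07) and -1.55 (SE 1.99). Neither they nor Abcc3 and Abcg3 reached an unadjusted p of 0.05. Abcc3 missed it in 13 of 30 fits with a library left out, for instance at 0.61 without vehicle replicate 3. With KCL-HO-1i/5-FU, Abcc3 (1.53, SE 0.41) and Abcc4 (2.98, SE 0.97) were higher at an unadjusted p under 0.05. These were 2 of the 8 members counted, where 9.79% of all genes tested were higher, and Abcg3 stood at 1.59 (SE 0.53). Abcc4 alone did not overlap vehicle, as for 1.53% of all genes tested, and without replicate 3 of that group it stood at 1.52 with an unadjusted p of 0.0964. Without the trio Abcc4 was at 1.52 as well (edgeR unadjusted p = 0.0571), and Abcc3 at 1.21 had an unadjusted p under 0.05, where 4.93% of all genes tested were higher. Abcg3 was then at 1.15. With the PY code Abcc4 fell to 0.15 (SE 2.11).

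With KCL-HO-1i/gemcitabine, Abcb1a (1.33, SE 0.61), Abcb1b (1.05, SE 0.49), Abcc3 (1.74, SE 0.42) and Abcc4 (2.74, SE 0.96) were higher than with vehicle at an unadjusted p under 0.05. These were 4 of the 8 members counted, where 11.7% of all genes tested were higher, and Abcg3 stood at 2.01 (SE 0.53). Abcc3 and Abcc4 did not overlap vehicle, as for 2.2% of all genes tested, and neither did Abcg3. The adjusted p in edgeR was 0.0822 for both Abcc3 and Abcg3. Without the trio, Abcb1a fell to 0.48 and Abcb1b to 0.55, each with an unadjusted p over 0.05. Abcc3 at 1.80 and Abcc4 at 2.14 had one below it, where 7.87% of all genes tested were higher. Abcg3 was then at 1.97. With the PY code Abcb1b turned to -0.21 (SE 0.90) and Abcc4 fell to 1.05 (SE 1.60). Without the filter the unadjusted p of Abcg3 in edgeR was 0.0165 with KCL-HO-1i alone, 0.00655 with KCL-HO-1i/5-FU and 0.00101 with KCL-HO-1i/gemcitabine, each against vehicle.

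Each combination was also compared with the chemotherapy it contains. Most libraries with 5-FU or gemcitabine alone carry the code PY76, which no inhibitor library has. Gemcitabine and KCL-HO-1i/gemcitabine share no code at all. The inhibitor and whatever the code stands for therefore cannot be told apart in that comparison, and only in part in the one with 5-FU. In KCL-HO-1i/5-FU against 5-FU, Abcc1 was higher at 0.89 (SE 0.32, edgeR adjusted p = 0.337), the single member with an unadjusted p under 0.05 where 6.18% of all genes tested were higher. Without KCL-HO-1i/5-FU replicate 3 this value was 0.55 with an unadjusted p of 0.0783, and without the trio it was 0.55 with an unadjusted p of 0.0352. In KCL-HO-1i/gemcitabine against gemcitabine, Abcb1a (1.48, SE 0.62), Abcc3 (1.71, SE 0.42) and Abcc5 (0.74, SE 0.32) were higher at an unadjusted p under 0.05. These were 3 of the 8 members counted, where 6.94% of all genes tested were higher, and Abcg3 stood at 1.74 (SE 0.53). Abcc3 was the single member without overlap in that comparison, as for 0.695% of all genes tested. Without the trio Abcb1a fell from 1.48 to 0.63 (edgeR unadjusted p = 0.247) and Abcc5 was at 0.63 (edgeR unadjusted p = 0.0847). Abcc3 at 1.77 had an unadjusted p under 0.05, where 5.35% of all genes tested were higher, and Abcg3 was at 1.70.

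Against KCL-HO-1i alone, adding 5-FU moved no member past an unadjusted p of 0.05, with or without the trio (7.47% of all genes tested were higher and 9.43% lower). Adding gemcitabine moved Abcc3 by 0.88 (SE 0.41), without overlap, where 1.2% of all genes tested passed that p in the same direction and 0.117% did not overlap. Its adjusted p in edgeR was 1, and 7 of 30 fits with a library left out had an unadjusted p at or over 0.05, as did the fit without the trio (0.85, edgeR unadjusted p = 0.0664). The interaction of KCL-HO-1i with 5-FU passed an unadjusted p of 0.05 for no member (4.03% of all genes tested positive, 4.51% negative), and neither did that with gemcitabine (0.644% and 0.695%). Without the trio no member passed it in the gemcitabine interaction, but Abcc1 did in the 5-FU interaction. Abcc1 then stood at 0.83 (SE 0.35, edgeR unadjusted p = 0.0267, adjusted p = 0.605), against 0.89 (edgeR unadjusted p = 0.0579) with all libraries. For Abcc3 the interactions were -0.12 (SE 0.57) and 0.85 (SE 0.58), so a larger difference in the gemcitabine background was not shown.

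Of the PY code in the labels 13 forms occur, and whether it stands for a mouse, a cage or a litter is not stated. A code is shared between libraries with and without the inhibitor in 3 instances. In these Abcc3 was at 8.35 CPM with KCL-HO-1i and 6.27 with 5-FU, at 21.7 and 16.6 with KCL-HO-1i/5-FU and 10.4 with 5-FU, and at 20.4 with KCL-HO-1i/gemcitabine and 7.52 with vehicle. It was thus higher in the library with the inhibitor in each of the 4 pairings. Abcc5 and Abcg2 were also higher in each, although Abcg2 had a negative log2 fold change in the average. The share of all genes for which this holds was not counted. Chemotherapy was the same only where KCL-HO-1i/5-FU was set against 5-FU, and both of those pairings use the same 5-FU library. In the others the chemotherapy differed as well, so the pairings are neither independent nor comparisons of the inhibitor alone. Abcg3 was higher in 3 of these pairings and at 0.494 against 0.667 CPM in the other. With the code as a covariate Abcc3 had a log2 fold change of 1.36 (SE 0.52, edgeR unadjusted p = 0.0203, adjusted p = 0.454) in the KCL-HO-1i average, and Abcg3 one of 2.06 (SE 0.80, edgeR unadjusted p = 0.0211). Abcc4 fell from 1.92 to 1.26 (SE 1.04, edgeR unadjusted p = 0.243). Abcb1a at 1.20, Abcb1b at 1.00 and Abcc5 at 0.41 had unadjusted p-values of 0.137, 0.0771 and 0.372 in edgeR, and Abcg2 turned from -0.21 to 0.59 (SE 0.27, edgeR unadjusted p = 0.0499). In the 3 comparisons of an inhibitor group with vehicle no member had an unadjusted p under 0.05 in that fit. Of all genes tested 0.564% to 0.944% were higher there. Of the vehicle libraries only replicate 1 shares its code with another group, through KCL-HO-1i/gemcitabine replicate 5. Comparisons with vehicle in that fit therefore rest on this pair of libraries and say little of the other vehicle libraries.

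The genes most alike each member were taken as those with the highest Pearson correlation of log2 CPM over the 30 libraries, which share treatment and tumour make-up. Abcc3 was most like Trem2, a receptor of myeloid cells (r = 0.94), then Gpr34 and Ms4a7 (both 0.92). Abcc4 was most like S1pr1, a sphingosine-1-phosphate receptor (0.86), then Snx24 and Procr (both 0.85), and Abcb1a most like Csf2rb2, a cytokine receptor subunit (0.89), Hic1 (0.86) and Plxnd1 (0.84). After subtracting group means Trem2 stayed first for Abcc3 (0.92) and S1pr1 for Abcc4 (0.86), while for Abcb1a Csf2rb2 came after Hic1 and Serping1 (each 0.90). Abcg3 was most like Cd300a (0.84), Slc37a2 and Npl (both 0.83), all replaced after subtracting group means by Ptafr (0.76), AI467606 (0.75) and Hgf (0.74). Abcb1b was most like Prelp, Srpx and Fcgrt (each 0.83).

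The abundant members had other neighbours in pattern. Abcg2 was most like Ctps, which makes cytidine triphosphate (0.84), Ipo5 (0.83) and Azin1 (0.82), and after subtracting group means most like Fam126a (0.88), Recql (0.85) and Ddx21 (0.83) instead. Abcc1 was most like Rusc2 (0.82), Rasal2 and Apbb2 (both 0.81), Abcc5 most like Fam49a (0.84), Itgae and Ace (both 0.83), and Abcc10 most like Klhdc7a (0.75), Ccpg1 (0.73) and Slc31a2 (0.72). Among the members themselves, Abcc3 and Abcc5 (r = 0.78) and Abcc3 and Abcg3 (0.75) were closest. Abcg2 ran against Abcc5 (-0.44) and Abcc10 (-0.41).

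**Figure D4:**
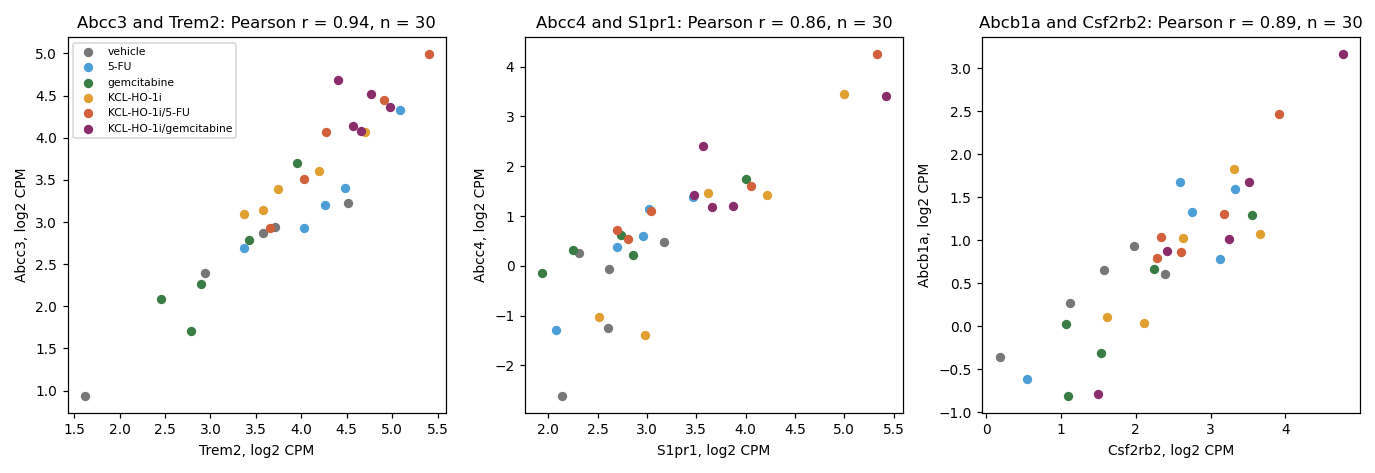
Log2 CPM of Abcc3, Abcc4 and Abcb1a (vertical axes) against the gene most like each, Trem2, S1pr1 and Csf2rb2 (horizontal axes), with 1 point per library coloured by treatment. In each panel the genes rise together (r = 0.94, 0.86 and 0.89), and the highest Abcc4 points are the libraries with the most S1pr1.

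Mean log2 levels of the marker lists moved with several transporters. Over the 30 libraries Abcc3 and Abcg3 had a correlation of 0.75 and 0.74 with the macrophage score, and Abcb1a and Abcc4 one of 0.82 and 0.80 with the endothelial score. Without the 2 libraries farthest from the median score these were 0.70 and 0.69, and 0.70 and 0.70. The fibroblast score was nearly as close to Abcc3 and Abcg3 (0.69 and 0.68, or 0.61 and 0.60 without the 2 libraries). For Abcc4 the macrophage and fibroblast scores gave 0.66 and 0.64. Abcb1a went with the macrophage score about as closely (0.80, and 0.76 without the 2 libraries), and Abcb1b with the fibroblast (0.80), macrophage (0.76) and endothelial scores (0.70). Summed macrophage markers ran from 99.7 to 320 CPM with vehicle, 183 to 499 with 5-FU, 132 to 651 with gemcitabine, 296 to 699 with KCL-HO-1i, 317 to 826 with KCL-HO-1i/5-FU and 396 to 736 with KCL-HO-1i/gemcitabine. All 11 macrophage markers had a positive log2 fold change in the KCL-HO-1i average, and Cd163 and Lyve1 were at 0 in some libraries.

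Summed endothelial markers reached 129 CPM with vehicle and ran from 81.3 to 197 with 5-FU, 86.5 to 211 with gemcitabine, 75.9 to 400 with KCL-HO-1i, 72.9 to 503 with KCL-HO-1i/5-FU and 104 to 668 with KCL-HO-1i/gemcitabine, and none of the 12 was at 0 in any library. Fibroblast and adipocyte scores also followed Abcb1a (0.79 and 0.72). Abcg2 instead went with the proliferation score (0.59) and the milk protein score (0.54), and Abcc10 had a correlation of -0.41 with proliferation and 0.20 with luminal epithelium, which became -0.27 and 0.49 without the 2 libraries farthest in each score. The part of these cell types in the transporter differences was not tested.

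Related genes gave the wider setting in the KCL-HO-1i average, in which no gene of these lists passed an adjusted p of 0.05. The values here and in the next paragraph include the trio, and none are given without it. Some rest on uneven libraries, such as Abcd2 at 20.3 ± 40.9 CPM in the 15 libraries with the inhibitor (SD). At an unadjusted p under 0.05, 13.7% of all genes tested were higher and 9.22% lower, against which the counts below are to be read. Of the ABCA lipid transporters 4 of 8 tested were higher, among them the cholesterol exporter Abca1 at 0.46 (SE 0.17) and Abca9 at 1.01 (SE 0.39). Among the intracellular ABCB proteins, Abcb6 was lower at -0.35 (SE 0.12). Of 8 ABCD, ABCE and ABCF proteins 1 was higher, the peroxisomal Abcd2 at 1.98 (SE 0.64), and 3 were lower. The translation factor Abcf1 was at -0.29 (SE 0.061, edgeR adjusted p = 0.0522), and the ribosome recycling factor Abce1 was at -0.28 (SE 0.11). Abcg1, the one tested gene of the other ABCG sterol transporters, stood at 0.40 (SE 0.20), and Abcc9, the one tested of the other surface ABCB and ABCC proteins, at -0.056 (SE 0.26).

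Genes that supply or accompany the pumps were mixed, again beside 13.7% higher and 9.22% lower among all genes tested. Of 14 nucleoside and organic ion carriers 2 were higher, the anion carrier Slco2b1 at 1.07 (SE 0.34) and the nucleoside carrier Slc28a2 at 2.15 (SE 0.68), and 2 were lower. The latter included Slc28a3, which brings nucleosides and gemcitabine into cells, at -0.46 (SE 0.18) from 184 ± 70.8 CPM in the 15 libraries without the inhibitor to 132 ± 34.1 CPM in the 15 with it (SD). Of 22 genes of glutathione supply and conjugation 6 were higher and none lower, with the transferases Gstm1 at 1.15 (SE 0.27, edgeR adjusted p = 0.0525) and Gstm2 at 1.60 (SE 0.45) and the synthesis subunit Gclm at 0.30 (SE 0.10). Of 17 transcription factors linked to transporter genes 5 were higher and none lower, led by Rxra at 0.36 (SE 0.086), the adipocyte regulator Pparg at 2.21 (SE 0.62) and the sterol sensor Nr1h3 at 0.87 (SE 0.25). Pparg also belongs to the adipocyte marker list.

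The genes beside the transporters on their chromosomes were followed as well, as the median deviation of the 20 tested genes on each side. For Abcc3 this neighbourhood stayed within -0.21 to 0.18 log2 units while Abcc3 ran from -2.41 to 1.64, with no correlation (r = -0.00018). Abcc4 was likewise unrelated to its neighbours (0.064). Abcb1a and Abcb1b followed theirs (0.72 and 0.82), whose median ran from -0.18 to 0.41. The pair lie close together, so their neighbours are largely the same genes. The highest of these medians, 0.41, 0.37 and 0.29, were those of the trio of libraries, with the next for Abcb1a at 0.20. A fit without the trio was not made for them.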

How the data were processed

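RNA of 30 mammary tumours (6 groups of 5 by the labels, from individual mice collected on separate days per the study's methods) was sequenced from directional libraries. Per the submitters' processing notes, the authors used FastQC 0.11.9, STAR 2.7.9a, Salmon 1.9.0 and DESeq2 on mm10, and the study's methods add tximport. The deposited values are expected counts (estimated reads per gene, 38.0% not whole), not scaled by the authors for length or depth, although the methods speak of TPM. They were rounded to whole numbers. Of 21841 genes, 13663 passed edgeR's filterByExpr by group (minimum count 10), and the 8178 left out held 0.0564% of the counts.

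For the 12 contrasts a single edgeR model was fitted (version 4.0.16, R 4.3.3, TMM, robust quasi-likelihood, 6 group means, all 30 libraries), two-sided, with Benjamini-Hochberg adjustment over all genes tested. The pipeline was tested on simulated data. Correlations used log2 CPM (prior count 2). The members and lists were chosen with earlier results of these data known. Named beside the 10 members were up to 3 genes of each related list with the smallest p in the KCL-HO-1i average, and the 3 tested genes most correlated with each member. A gene that this rule names is not reported here. As alternatives the fit was repeated with RLE size factors, with DESeq2 1.42.0 and with limma-voom (limma 3.58.1). It was also run unfiltered, keeping genes with a mean count of 50 or more, and blocking on replicate number. Further fits added the PY code to the model, were restricted to the groups being compared, summed Abcb1a and Abcb1b, or dropped each library. Leaving out 2 or 3 libraries together was added after seeing the data.

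Positions, exon lengths, gene order and 31-base words came from GENCODE M21 on GRCm38, and promoters from RefSeq on GRCm38.p6, where 8 of 10 members had a window. Depth was 10067577 to 13622264 counts per library, and floors in CPM cover counting error only. Within groups no pair of libraries agreed within sampling noise (lowest chi-square per degree of freedom 19.9). Libraries with the same replicate number did not deviate together.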

Additional observations from a re-analysis of the deposited data

Results flagged for a closer look

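In 5 of 59 groups of 5 libraries, 1 library stood apart by Dixon's criterion, and chance alone marks about 1 group in 20. Abcc4 had 3 of them. KCL-HO-1i/5-FU replicate 3 was at 18.8 CPM, with the other 4 libraries between 1.28 and 2.89. In the KCL-HO-1i group replicate 4 was at 10.8 CPM (others 0.215 to 2.61), and in the gemcitabine group replicate 5 was at 3.18 CPM (others 0.735 to 1.37). Endothelial markers summed to 503, 400 and 211 CPM in these libraries, against a highest vehicle value of 129. Abcb1a was at 5.37 CPM in the same KCL-HO-1i/5-FU replicate 3 (others 1.57 to 2.3). Abcc1 was at 35.4 CPM in vehicle replicate 3 (others 16 to 20.7), the library with the lowest Abcc3 and Abcc5. That library also had the lowest macrophage, fibroblast and T cell marker sums.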

How the results depend on the processing

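RLE size factors, dropping the filter and leaving out the trio of libraries, or KCL-HO-1i/5-FU replicate 3 and KCL-HO-1i/gemcitabine replicate 2 together, changed no count of members called at an adjusted p of 0.05, which was 0 in each of the 12 contrasts. Fitting the compared groups by themselves, possible in all of these but the average, also called none. Requiring a mean count of 50 left 5 members to test, without Abcb1a, Abcb1b, Abcc4 and Abcg3, and called none of the 5. DESeq2 called 3 members in the KCL-HO-1i average (Abcc3, Abcc4 and Abcg3), beside 1139 of 13663 genes tested. It called the same 3 in KCL-HO-1i/gemcitabine against vehicle, beside 883 genes. In KCL-HO-1i/5-FU against vehicle it called 2 members beside 408 genes, and in KCL-HO-1i/gemcitabine against gemcitabine 1 beside 45. Limma-voom called 1 member in the average (Abcc3) beside 267 genes, where edgeR called 8 genes. In KCL-HO-1i/gemcitabine against vehicle limma-voom called Abcc3, Abcc4 and Abcg3 beside 1322 genes. Counts in this section include Abcg3, which entered the test through the inhibitor groups. Leaving out 1 library gave 0 to 3 members in the average and 0 to 2 in KCL-HO-1i/gemcitabine against vehicle, and 0 in the other contrasts. In the average Abcc3 alone was called without vehicle replicate 2, 5-FU replicate 3 or KCL-HO-1i/5-FU replicate 1. Abcc3, Abcc4 and Abcg3 were called without 5-FU replicate 5, gemcitabine replicate 5, KCL-HO-1i replicate 1 or 5, KCL-HO-1i/5-FU replicate 4 or 5, or KCL-HO-1i/gemcitabine replicate 4. In KCL-HO-1i/gemcitabine against vehicle Abcc3 and Abcg3 were called without KCL-HO-1i/5-FU replicate 3, and Abcc3 without KCL-HO-1i/gemcitabine replicate 4. Over its alternatives the adjusted p of Abcc3 in the average ran from 0.00111 to 0.192, and was 0.454 with the PY code.

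Signs were followed over 72 log2 fold changes, those of the 9 members in the average and the comparisons with vehicle or chemotherapy. With the PY code as a covariate 25 of the 72 changed sign, the largest of them 2.30 in size before. They included Abcg2 in the average (0.59), Abcb1b (-1.02) and Abcc4 (-1.55) for KCL-HO-1i, Abcc4 for 5-FU (-1.81) and gemcitabine (-2.33), Abcc3 (-0.81) and Abcc10 (0.22) for gemcitabine, and Abcb1b for KCL-HO-1i/gemcitabine (-0.21), all against vehicle except the first. Abcb1b for gemcitabine against vehicle turned from 0.15 to -3.23 (SE 1.32). None of these passed an adjusted p of 0.05 in either edgeR fit, and the cause was not tested. Before the code was added, Abcb1b and Abcc4 for KCL-HO-1i had an unadjusted p under 0.05. So did Abcc10 for gemcitabine and Abcb1b for KCL-HO-1i/gemcitabine. With the code, Abcg2 in the average and Abcb1b for gemcitabine had one. Vehicle is tied to the other groups in that fit only by the code of its replicate 1. The sign changes against vehicle therefore rest on that library and KCL-HO-1i/gemcitabine replicate 5. Limma-voom changed the sign of 9 of the 72, none over 0.308 in size before, and put Abcc10 at 0.0074 in the average. Without the trio 6 changed sign, Abcc1 in the average to -0.048. Left-out libraries moved Abcc10 in the average between -0.078 and 0.0035, Abcc3 for gemcitabine between -0.40 and 0.21, and Abcg3 for gemcitabine between -0.028 and 0.55. With the replicate number as a block Abcc3 for gemcitabine was at -0.015, and the block changed no count of members called. Same-numbered libraries had a mean residual correlation of 0.00284 over 75 pairs, 22 of them over 0.1, so the numbers were not taken to pair samples. At 2 to 33 reads per library for Abcg3 and 0 to 6 for Abcc2, depth limits what can be said of both.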
